A study of Mus musculus with 12 samples.

Results

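The response of control mouse embryonic fibroblasts to 6 h at 0.1% O2 was measured in the 3 lines named flox1, flox2_1 and flox2_2. The hypoxia array of each line was compared with its normoxia array at 21% O2, paired by the line name, which took 6 of the 12 arrays of the series. The other 6 arrays came from 3 lines in which the CH1 domain, the part of the coactivators CBP and p300 that binds the hypoxia-inducible factor HIF, had been deleted from 3 of the 4 coactivator alleles (triCH1 lines). The lines were primary fibroblasts of embryos at e14.5, infected at passage 3 with an adenovirus carrying Cre recombinase and then expanded by a factor of 100 or more. Line flox1 carried 1 conditional knockout allele of CBP (gene Crebbp), and lines flox2_1 and flox2_2 carried 1 of p300 (gene Ep300). All received the Cre virus, so the control lines were not wild-type cells, and each group held 3 lines with 1 array per line and oxygen level. Subconfluent cultures were given medium equilibrated overnight at the same oxygen level and kept at 37 °C with 5% CO2. The labels do not say which embryo each line came from. Xist, which female cells express, read 819 and 1733 in flox2_1 under hypoxia and in normoxia, and at most 90.0 in flox1 and flox2_2. Eif2s3y, a Y-linked gene, read at most 6.2 in flox2_1 and at least 919 in flox1 and flox2_2, so flox2_1 had the female pattern and the other two control lines the male one. Lines flox2_1 and flox2_2, of 1 genotype, therefore did not share an embryo. Among the triCH1 lines Xist read 702 and 459 in triCH1flox1, 1409 and 898 in triCH1flox2_2 and 74.5 and 4.2 in triCH1flox2_1, so the mix of sexes differed between the line types. Each line had 1 culture per oxygen level. The p-values therefore set the mean response against a spread among lines, pooled over both line types. For each probe set that spread was drawn toward the one typical of probe sets of similar signal. Variation between cultures of a line is part of that spread and cannot be told apart from it.

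Cells sense oxygen through prolyl hydroxylases (the Egln enzymes), which use oxygen to mark HIF alpha subunits for destruction by the von Hippel-Lindau protein. When oxygen is scarce the alpha subunits persist, pair with ARNT, bind DNA at the core letters ACGTG or GCGTG and recruit CBP and p300. In fibroblasts this programme is known for raising glucose uptake and glycolysis, restraining mitochondrial respiration and releasing vascular growth factors.

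The values are probe set signals on a linear scale, scaled by the authors so that the trimmed mean of every array is 500. Median signals of the 6 control arrays were close to one another, between 64.1 and 71.7, and the highest signals of these arrays lay between 43897 and 61232. On the highest-mean probe set of Crebbp, the signals were 797, 1632 and 1013 in flox1, flox2_1 and flox2_2 under hypoxia, against 713, 1837 and 1077 in normoxia. The Ep300 probe set gave 412, 379 and 207 under hypoxia, against 586, 468 and 268 in normoxia, in the same order of lines. Neither coactivator passed the test described below (limma, adjusted p = 0.986 for Crebbp and 0.771 for Ep300). Where these probe sets lie relative to the deleted segments is not given in the sources used here, so they do not check the deletion. Of 16 fibroblast markers, all 16 averaged at least 100 over the 12 arrays. In the control arrays Pdgfra and Dcn were weak, at 14.7 to 111 and 12.1 to 118 under hypoxia, against 81.7 to 217 and 53.1 to 123 in normoxia. Markers of other cell types were mixed. Members averaging at least 100 over the 12 arrays numbered 3 of 12 for skeletal muscle, 5 of 10 for cartilage and bone, 6 of 12 for neural cells, 2 of 8 for adipocytes and 2 of 10 for endothelium. Summed muscle markers ran from 15775 to 17763 under hypoxia, against 12469 to 18759 in normoxia, mostly from Acta1, while Myod1 and Myog were at most 73.8. Cartilage and bone markers summed to 2440.5 to 6115 under hypoxia, against 2759 to 5850.1 in normoxia, with Col2a1 up to 2537 and Col10a1 up to 2764. Neural markers summed to 6120.3 to 11094 under hypoxia, against 6114 to 11125 in normoxia, led by Ncam1, Stmn2, Map2 and Nes. Adipocyte markers summed to 1296 to 2442 under hypoxia, against 1025 to 1663 in normoxia, mainly Fabp4, with Adipoq at most 50.4. Endothelial markers summed to 566 to 1055 under hypoxia, against 782 to 1125.0 in normoxia, with Esam up to 803, Pecam1 at most 10.2 and Cdh5 at most 49.1. Their part in the results was not tested. The summed epithelial markers ran from 6515 to 7975 under hypoxia, against 1948 to 2691 in normoxia, and the list had 4 of 12 members averaging at least 100. That difference came almost wholly from Krt19, a keratin, with signals of 7281, 5573 and 6075 under hypoxia, against 1729, 968 and 1810.0 in normoxia. Krt5, Krt8 and Krt14 were at most 119 in the 6 control arrays, and Perp reached 386. Because RNA was taken from whole cultures, fewer cells expressing a gene and less RNA per cell cannot be told apart.

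After adjustment for the number of tests, more transcripts were higher under hypoxia than lower, and the increases were larger. Probe sets were tested where the 12 arrays averaged 100 or more, 18903 in all, and log2(signal + 20) was fitted with limma with the line as a block, and the changes below are log2 differences of hypoxia over normoxia with their standard errors. At an adjusted p under 0.05, 229 probe sets were higher, 1.21% of those tested, and 35 were lower, 0.185%. Without adjustment, 801 were higher and 977 lower at p under 0.05. The higher probe sets named 150 genes and the lower ones 27. Among the 229, 162 rose by at least 1 log2 unit, 63 by at least 2 and 16 by at least 3, with a median of 1.45. Among the 35, 8 fell by at least 1 log2 unit and none by 2, with a median of -0.81. Every called probe set moved the same way in all 3 lines. In 223 of the 229, each of the 3 hypoxia signals exceeded each of the 3 normoxia signals, a pattern seen in 4.66% of all tested probe sets. In 30 of the 35, each hypoxia signal lay below each normoxia signal, against 6.97% of all. The calls were made from these same signals. Separation of the signals of called genes, here and below, therefore follows largely from their choice and is not further evidence. The filter matters for the genes that were faint in normoxia: 31 of the 229 averaged under 100 over the 6 normoxia arrays and entered the test only through their hypoxia signals. Left-out lines moved the counts. Without flox1, 148 probe sets were higher and 6 lower, and without flox2_2, 248 were higher and 79 lower, of which 17 were among the 35. The lower count was 15 without triCH1flox2_1 and 12 without triCH1flox2_2, which entered only through the shared estimate of the spread.

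The 20 genes with the highest changes include the oxygen sensors Egln3 and Egln1, the mitophagy receptor Bnip3, the pyruvate dehydrogenase kinase Pdk1 and a pair of glycogen-targeting phosphatase subunits. Bnip3, which recruits damaged mitochondria to autophagy, had the largest change of all. Its signals were 14392, 16863 and 16903 in flox1, flox2_1 and flox2_2 under hypoxia, against 672, 910.4 and 586 in normoxia, and values are given in this order of lines throughout. The hypoxia signals of Bnip3 were far above its normoxia signals in each line, a change of 4.46 ± 0.17 (limma, adjusted p = 6.17e-09). Over the 20 genes, control signals lay between 213.6 and 16903 under hypoxia, against 5.9 and 910.4 in normoxia, and the groups did not overlap for any of them. In 9 of the 20 the 6 normoxia arrays averaged under 100, so the size of those changes depends on the added constant of 20. Of the 20 genes, 9 (Vldlr is in both counts) had further tested probe sets, and all of these were called higher too.

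**Figure D1:**
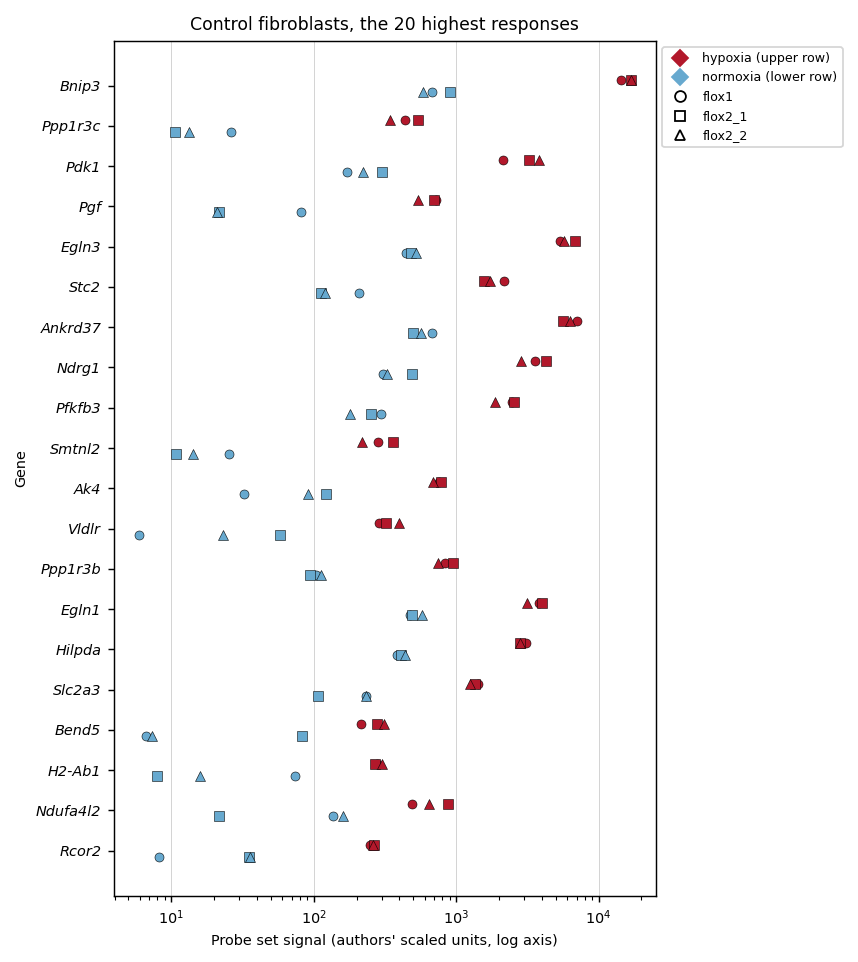
Probe set signals (log axis, authors' scaled units) of the 20 genes with the highest changes in the control lines, with hypoxia in the upper row of each gene and normoxia in the lower, and 1 marker shape per line. For each gene the 3 hypoxia signals lie to the right of the 3 normoxia signals, and the normoxia signals of Vldlr, Bend5, H2-Ab1, Ppp1r3c, Smtnl2 and Rcor2 include values under 20.

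RefSeq listed a promoter for 15 of the 20 highest genes, and 9 of the 15 held ACGTG, a form of the core letters bound by HIF. The 4 of these with the highest changes are shown. Each line gives 300 bases, 250 before to 50 after the annotated start, on the gene's strand (GRCm38.p6), with ACGTG and its reverse complement CACGT in capitals. The Bnip3 window is chr7:138909457-138909756, that of Ppp1r3c chr19:36736555-36736854, that of Egln3 chr12:54203825-54204124 and that of Ankrd37 chr8:45999801-46000100, all on the minus strand.
Bnip3: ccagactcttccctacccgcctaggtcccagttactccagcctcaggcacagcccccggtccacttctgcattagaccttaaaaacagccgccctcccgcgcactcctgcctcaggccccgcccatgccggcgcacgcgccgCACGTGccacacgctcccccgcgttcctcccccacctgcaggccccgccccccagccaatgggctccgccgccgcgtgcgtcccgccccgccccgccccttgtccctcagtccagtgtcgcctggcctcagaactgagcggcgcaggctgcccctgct
Ppp1r3c: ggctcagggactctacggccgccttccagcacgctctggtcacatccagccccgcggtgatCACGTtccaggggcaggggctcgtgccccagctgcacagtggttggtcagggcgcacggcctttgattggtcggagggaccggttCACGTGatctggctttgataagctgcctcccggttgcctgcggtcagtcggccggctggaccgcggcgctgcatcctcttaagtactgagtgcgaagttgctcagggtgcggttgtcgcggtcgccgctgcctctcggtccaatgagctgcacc
Egln3: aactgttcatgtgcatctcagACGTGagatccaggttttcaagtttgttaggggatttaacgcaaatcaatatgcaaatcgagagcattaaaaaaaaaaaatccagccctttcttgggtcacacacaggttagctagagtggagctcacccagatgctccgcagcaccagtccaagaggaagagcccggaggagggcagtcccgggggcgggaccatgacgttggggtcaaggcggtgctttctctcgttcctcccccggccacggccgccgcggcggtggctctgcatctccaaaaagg
Ankrd37: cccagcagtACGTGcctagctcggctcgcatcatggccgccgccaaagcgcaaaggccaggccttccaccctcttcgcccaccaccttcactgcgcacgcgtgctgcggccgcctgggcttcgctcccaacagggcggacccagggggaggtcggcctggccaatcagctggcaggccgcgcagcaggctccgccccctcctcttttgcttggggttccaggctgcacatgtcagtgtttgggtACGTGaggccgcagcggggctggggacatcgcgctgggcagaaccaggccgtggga
In Bnip3 and Ppp1r3c the letters overlap their reverse complement, as CACGTG, at about the same distance from the start, -108 in Bnip3 and -104 in Ppp1r3c. Egln3 holds a single copy, 229 bases before the start, and Ankrd37 has copies 241 and 6 bases before it. A promoter was listed for 118 of the 150 genes called higher, and 65 of these, 55.1%, held ACGTG on either strand in at least 1 listed promoter. The share was 42.1% for the genes called lower (8 of 19), 30.8% for all tested genes (2536 of 8223) and 21.8% for all genes with a listed promoter (5886 of 27025). Counted per promoter, it was 42.4% for genes called higher, 41.7% for genes called lower, 26.5% for tested genes and 19.6% over all 32851 promoters. The called genes of both directions were therefore close by that count. In the 250 bases before the start alone the per-promoter shares were 36.4%, 20.8% and 22.3%, so that closeness depends on the window. Genes called lower had only 24 promoters. A match describes letters in this window and does not show binding.

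Of the genes that run the oxygen sensor, the hydroxylases that are themselves HIF targets rose and HIF's own subunits passed no test. Among 16 measured genes of the HIF pathway, 3 were called higher and 0 lower. Over all 10059 genes, each taken by its brightest probe set, 1.42% were called higher and 0.209% lower, with a median change of -0.04, and the pathway's median was 0.02. These shares over all genes are the background for each list count below. Egln3, a prolyl hydroxylase, gave 5388, 6799 and 5747 under hypoxia, against 446, 479.7 and 519 in normoxia. Egln1, the main hydroxylase of HIF in most cells, had 3822, 4004 and 3166 under hypoxia, against 478, 487 and 574 in normoxia, on the probe set with its largest change. Its brighter probe set had a smaller change, 2.02 ± 0.14 rather than 2.79 ± 0.16. Vhl, whose product brings hydroxylated HIF to the ubiquitin ligase, gave 1429, 1425 and 1309 under hypoxia, against 652, 479 and 632 in normoxia. The groups were separate for all 3 genes, with changes of 3.58 ± 0.15 for Egln3 and 1.22 ± 0.17 for Vhl (limma, adjusted p = 2.18e-08 and 0.001). Hif1a, the alpha subunit itself, had 3601, 3851 and 5576 under hypoxia, against 4496, 5712 and 4435 in normoxia. Those signals overlapped, with a change of -0.19 ± 0.17 that did not pass the test (limma, adjusted p = 0.832). The changes of Epas1, Arnt, Egln2 and Hif1an were -0.20, 0.10, 0.11 and -0.21, none past the threshold.

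Transcripts for glucose uptake and lactate export rose in every control line. Of 7 measured transport and hexokinase genes, 5 were higher and 0 lower, with a median of 1.67 over all 7. The glucose transporter Slc2a1 gave 29799.7, 25026 and 25571 under hypoxia, against 9591, 7446 and 8312 in normoxia. Slc2a3, a transporter of higher affinity, gave 1428, 1349 and 1241 under hypoxia, against 233, 108 and 234 in normoxia. Slc16a3, the lactate and proton exporter MCT4, gave 2686, 2826 and 2159 under hypoxia, against 347, 398 and 479 in normoxia. The 3 transporters separated fully between oxygen levels, with changes of 1.67 ± 0.10, 2.75 ± 0.23 and 2.59 ± 0.21 (limma, adjusted p = 2.24e-07, 7.30e-06 and 4.16e-06). Hexokinases, which trap glucose in the cell, rose by 1.80 ± 0.14 for Hk2 and 1.35 ± 0.16 for Hk1. The other 2 members, Slc16a1 and Slc2a8, had changes of 0.34 and -0.06, and neither passed the test.

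Along glycolysis the largest changes stood at the phosphofructokinase step. Of 14 measured enzymes and regulators, 9 were higher and 0 lower, with a median of 0.67. Pfkfb3, which makes the activator of phosphofructokinase, gave 2483, 2559.6 and 1874 under hypoxia, against 297, 254 and 181 in normoxia. Phosphofructokinase itself followed, with Pfkl changed by 1.93 ± 0.15 and Pfkp by 1.71 ± 0.14 (limma, adjusted p = 7.90e-08 for Pfkfb3, 4.06e-06 for Pfkl and 4.75e-06 for Pfkp). Aldoc, an aldolase isoform of brain and other tissues, was faint in normoxia and rose by almost the same amount in each line, 1.64, 1.68 and 1.60. The later enzymes had normoxia signals of at least 9051 and changed less: 1.03 ± 0.10 for Tpi1, 0.77 ± 0.10 for Pgam1, 0.69 ± 0.10 for Ldha, 0.65 ± 0.10 for Pgk1 and 0.53 ± 0.11 for Aldoa. Ldha, which turns pyruvate into lactate, gave 33163, 29471 and 30454 under hypoxia, against 20170.3, 15562 and 22698 in normoxia, so its groups did not overlap either. These signals are within a few fold of the highest on each array, and whether the scanner's range limited the changes was not tested. The call for Aldoa was lost without a line, at an adjusted p of 0.105 without flox2_1, 0.191 without flox1 and 0.0534 without triCH1flox2_2. Pkm, Pfkm, Ldhb, Eno3 and Pfkfb4 had changes of 0.38, 0.15, -0.11, -0.18 and -0.42, none past the threshold.

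Genes known to adapt mitochondria to low oxygen gave several of the largest increases, and the respiratory chain gave 1 call. Of 16 measured genes of mitochondrial adaptation, 8 were higher and 0 lower, with a median of 0.68. Pdk1, which blocks entry of pyruvate into the citrate cycle, gave 2123, 3226 and 3791 under hypoxia, against 170.1, 299.8 and 222 in normoxia, with a change of 3.61 ± 0.18 (limma, adjusted p = 5.36e-08). Of its relatives Pdk2, Pdk3 and Pdk4, none passed the test, with changes of -0.60, 0.46 and -0.09. Higd1a, which associates with the respiratory chain, rose by 1.61 ± 0.11, and Fam162a, linked to cell death under hypoxia, by 1.64 ± 0.13. Ak4, an adenylate kinase of the mitochondrial matrix, gave 3745, 3718 and 3583 under hypoxia, against 414, 519.8 and 470.1 in normoxia. Ak4, like Higd1a and Fam162a, separated the oxygen levels without overlap. Ndufa4l2, a subunit that lowers complex I activity, gave 488, 881 and 639.9 under hypoxia, against 137, 21.6 and 161 in normoxia. The low normoxia signal of flox2_1 made its response there the largest, at 1.69, 4.44 and 1.87 across the lines, and the call was lost without that line (limma, adjusted p = 0.0542 without flox2_1). Mgarp and the protease Lonp1 were called as well, at 2.08 ± 0.42 and 0.90 ± 0.19. Mgarp lost its call at an adjusted p of 0.12 without flox2_1, 0.0786 without flox1 and 0.0607 without triCH1flox2_2. Lonp1 did so at 0.169 without flox2_1 and 0.442 without flox1. Of 65 measured respiratory chain genes, 1 was called higher and 0 lower, with a median of 0.05. That count is near the share over all genes, 1.42% higher and 0.209% lower. That gene was Ndufv3, a complex I subunit, at 0.63 ± 0.12, and its call was lost at an adjusted p of 0.149 without flox2_1 and 0.201 without flox1. Of 23 citrate cycle genes none was called in either direction, and their median was -0.02.

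Of 16 measured glycogen genes 5 were higher and 0 lower, and 2 of the 5, Ppp1r3c and Ppp1r3b, were among the 20 highest genes of all. The list had 11 members that were not called, and a median of 0.19. Ppp1r3c, which brings protein phosphatase 1 to glycogen synthase, gave 437, 536 and 346 under hypoxia, against 26.2, 10.6 and 13.3 in normoxia. Ppp1r3b, a related targeting subunit known best from liver, gave 830.1, 951 and 743 under hypoxia, against 104, 94.1 and 112 in normoxia. The pair rose by 3.65 ± 0.35 and 2.80 ± 0.24 without overlap (limma, adjusted p = 2.50e-05 and 8.16e-06). Gys1, the muscle-type glycogen synthase, rose by 1.68 ± 0.15 and Pgm1, which interconverts glucose 1-phosphate and glucose 6-phosphate, by 1.77 ± 0.15. Pygl, the liver-type phosphorylase that breaks glycogen down, rose too, by 1.66 ± 0.21. Gbe1, the branching enzyme, had a change of 0.86 and missed the threshold (limma, adjusted p = 0.18).

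Among factors that act on blood vessels, placental growth factor, Vegfa, apelin and adrenomedullin rose. Of 21 measured genes 5 were higher and 0 lower, with a median of 0.11. Pgf, a ligand of the VEGF receptor Flt1, gave 728, 698 and 541 under hypoxia, against 80.9, 21.6 and 20.8 in normoxia. Vegfa, the main endothelial growth factor, gave 3441, 3499 and 3022 under hypoxia, against 2039, 1911 and 1292 in normoxia. Both groups separated, with changes of 3.59 ± 0.49 for Pgf and 0.94 ± 0.15 for Vegfa (limma, adjusted p = 0.000756 and 0.00394). The normoxia signals of Pgf were near background, and its change was 4.25 with an added constant of 1 and 2.44 with one of 100. Apln, the ligand of the apelin receptor, rose by 1.50 ± 0.17, and Adm, the vasodilator adrenomedullin, by 0.87 ± 0.11. Ackr3, a scavenger of the chemokine Cxcl12, was called at 0.80 ± 0.18 but lost the call at an adjusted p of 0.251 without flox2_1, 0.254 without flox1, 0.0732 without flox2_2 and 0.0778 without triCH1flox2_2. Edn1 and Vegfb had changes of 0.62 and 0.54, which did not pass the test. Of 6 measured genes of pH control, 1 was higher, Car9, the cell-surface carbonic anhydrase. Car9 gave 98.3, 184 and 256 under hypoxia, against 4.4, 26.4 and 41.9 in normoxia, a change of 2.19 ± 0.37 from signals near background. Car12 and Car2 had changes of 0.68 and -0.88, neither of which passed.

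In a further list of known HIF targets with secreted, stress and cytoskeletal roles, 14 of 25 measured genes were higher and 0 lower, with a median of 0.77. The list was composed of genes reported to respond to hypoxia, so its direction is not independent evidence. Ndrg1, a stress and differentiation protein, gave 3593, 4243 and 2874 under hypoxia, against 306, 492 and 325 in normoxia. The secreted glycoprotein Stc2 gave 2152, 1569 and 1741 under hypoxia, against 208, 112 and 119.9 in normoxia. Ankrd37, an ankyrin repeat protein, gave 7052, 5628 and 6286 under hypoxia, against 682, 495 and 565 in normoxia. These 3 genes changed by 3.20 ± 0.17, 3.50 ± 0.21 and 3.41 ± 0.20 (limma, adjusted p = 7.90e-08, 2.24e-07 and 2.24e-07). Their responses spanned 0.41, 0.40 and 0.12 log2 units over the lines, against a median of 0.52 over the 229 higher probe sets. Vldlr, a lipoprotein receptor, rose by 2.16 ± 0.18 on its brightest probe set. On a fainter one it rose by 2.98 ± 0.37. Stc1, a paralogue of Stc2, rose by 1.78 ± 0.22, the membrane protein Tmem45a by 1.60 ± 0.16 and the transcriptional repressor Zfp395 by 1.74 ± 0.30. Zfp395 narrowly lost its call, at an adjusted p of 0.0535 without flox2_1. Hmox1, which degrades heme, rose by 1.07 ± 0.14. The weakest calls were Wsb1, Insig2 and Mif, at 0.86 ± 0.17, 0.77 ± 0.15 and 0.51 ± 0.12. Wsb1 lost its call at an adjusted p of 0.16 without flox1, 0.0718 without flox2_2 and 0.0594 without triCH1flox2_2. Insig2 lost it at 0.254 without flox1. Mif lost it at 0.235 without flox2_1, 0.323 without flox1, 0.0812 without triCH1flox2_1, 0.0692 without triCH1flox1 and 0.107 without triCH1flox2_2. Rab20, a small GTPase listed among HIF targets, ran the other way, at -1.34 ± 0.33, without passing the test (limma, adjusted p = 0.0783).

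**Figure D2:**
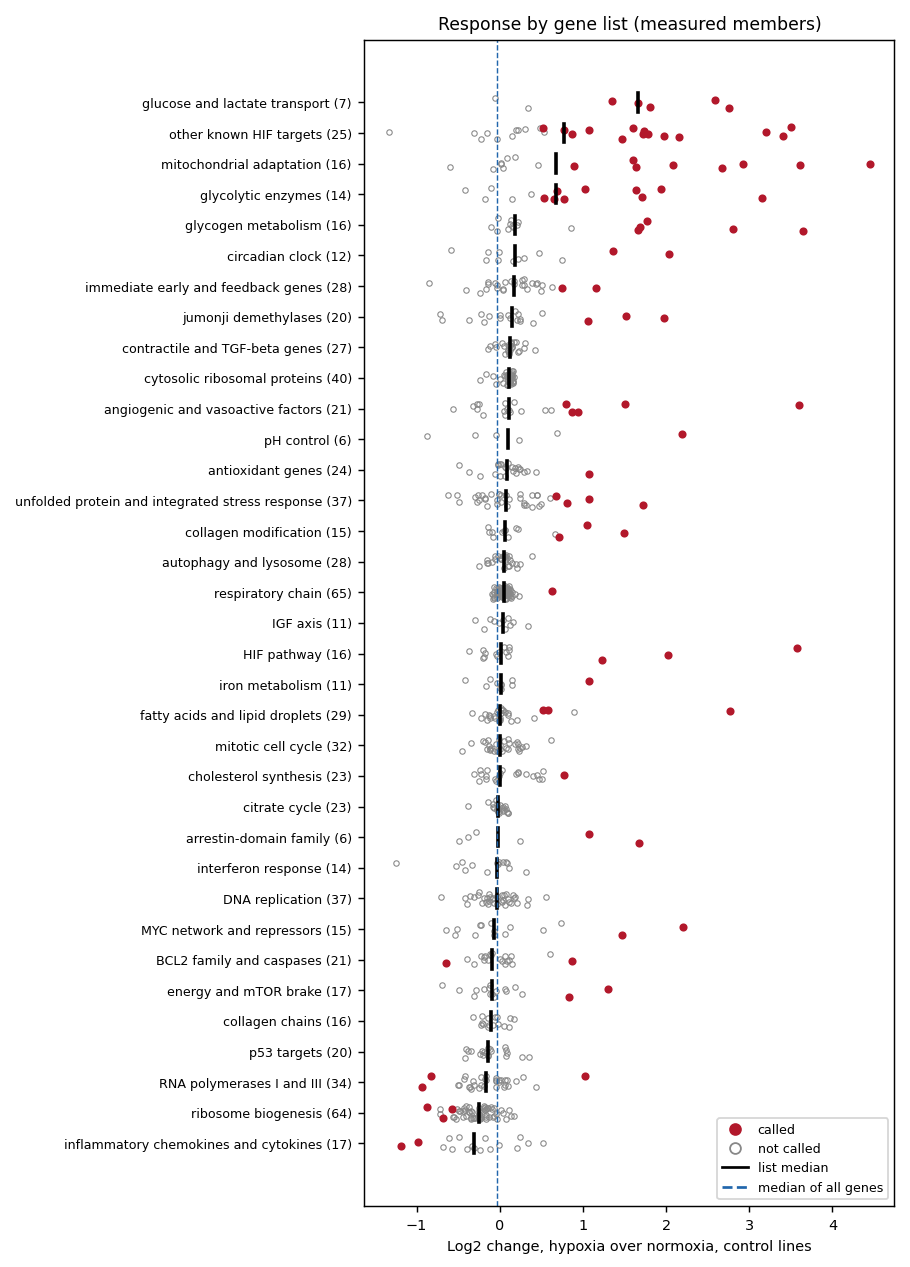
Log2 change of hypoxia over normoxia in the control lines for the measured members of each gene list, with called members filled, the list median as a black bar and the median of all 10059 genes as a dashed line. The lists with medians above 0.6 are those of glucose and lactate transport, glycolytic enzymes, mitochondrial adaptation and other HIF targets. In most other lists the called members stand away from a median nearer 0. Lists with lower calls include ribosome biogenesis, inflammatory genes and RNA polymerases I and III, with medians of -0.25, -0.30 and -0.17.

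Several called genes outside the sensors encode enzymes that use oxygen as a substrate. Of 15 measured genes of collagen modification 3 were higher and 0 lower, with a median of 0.06. P4ha2 and P4ha1, catalytic subunits of collagen prolyl hydroxylase, rose by 1.49 ± 0.13 and 0.71 ± 0.13, and Plod2, a collagen lysyl hydroxylase, by 1.05 ± 0.20. P4ha2 gave 8504, 8216 and 6222 under hypoxia, against 2893, 2673 and 2476 in normoxia, without overlap (limma, adjusted p = 7.70e-06). P4ha1 lost its call at an adjusted p of 0.102 without flox2_1 and 0.165 without flox1, and Plod2 at 0.0691 without flox1 and 0.0589 without triCH1flox2_2. Of the 16 measured collagen chains themselves, none was called in either direction, and their median was -0.11. Of 20 measured jumonji demethylases and relatives 3 were higher and 0 lower, with a median of 0.15. Kdm3a, a histone H3K9 demethylase, gave 2160.1, 2220.1 and 2594 under hypoxia, against 574, 717 and 464 in normoxia. Kdm4b rose by 1.51 ± 0.24 and Jmjd6 by 1.06 ± 0.14, and all 3 separated the oxygen levels. Kdm6a and Kdm8 had changes of -0.72 and -0.70, not past the threshold. Ero1a, the oxidase that forms disulfide bonds in the endoplasmic reticulum with oxygen as acceptor, gave 7933, 7529 and 7595 under hypoxia, against 2686, 2352 and 1949 in normoxia, a change of 1.73 ± 0.13 (limma, adjusted p = 2.27e-06).

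Repressors of transcription and brakes on growth signalling gave a few calls each. Mxi1, an antagonist of MYC, gave 2064, 2098 and 1519 under hypoxia, against 357, 377 and 441 in normoxia, a change of 2.21 ± 0.21 (limma, adjusted p = 2.55e-05). Bhlhe40, a repressor of the clock and of differentiation, rose by 1.47 ± 0.14. These were the 2 called members of 15 measured genes of the MYC network and repressors, whose median was -0.07, and Myc itself had a change of -0.07. Of 12 measured clock genes 2 were higher, Ciart at 2.04 ± 0.22 and Rora at 1.36 ± 0.26. Ciart, a repressor in the clock, gave 514, 514 and 503 under hypoxia, against 102, 136 and 93.1 in normoxia. Rora, a nuclear receptor, lost its call at an adjusted p of 0.208 without flox1 and 0.0542 without flox2_2. Of 17 measured genes of energy sensing and mTOR restraint 2 were higher, with a median of -0.09. Ddit4, which inhibits mTOR complex 1, gave 4370.5, 4473 and 4622 under hypoxia, against 1884, 1522 and 2047 in normoxia, a change of 1.31 ± 0.14 with separate groups. Prkab2, a subunit of the kinase AMPK, was called at 0.83 ± 0.18 and lost its call at an adjusted p of 0.119 without flox2_1, 0.238 without flox1, 0.1 without flox2_2 and 0.0806 without triCH1flox2_2.

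Stress, lipid and signalling lists held scattered calls. Besides Ero1a, the list for unfolded protein and integrated stress responses had 3 called genes among its 37 measured, Trib3 at 1.07 ± 0.22, Shmt2 at 0.81 ± 0.16 and Aldh18a1 at 0.68 ± 0.13, with a list median of 0.07. All of these calls were lost when a line was left out, Trib3 at an adjusted p of 0.189 without flox2_1, 0.245 without flox1 and 0.059 without triCH1flox2_2. For Shmt2 it was 0.132 without flox2_1 and 0.146 without flox1, and for Aldh18a1 0.158 without flox2_1 and 0.25 without flox1. Hspa5, the chief chaperone of that response, had a change of -0.01 and Ddit3, its death-linked factor, one of 0.45, neither past the threshold. Of 29 genes of fatty acids and lipid droplets 3 were higher, led by Hilpda, an inhibitor of lipolysis on lipid droplets, which gave 3104, 2807 and 2791 under hypoxia, against 386, 408 and 435 in normoxia. The desaturase Scd2 and the fatty acid binding protein Fabp5 were called at 0.58 ± 0.10 and 0.52 ± 0.11. Scd2 lost its call at an adjusted p of 0.138 without flox1. Fabp5 lost it at 0.175 without flox2_1, 0.147 without flox1, 0.0591 without triCH1flox2_1 and 0.061 without triCH1flox2_2, and its hypoxia and normoxia signals overlapped. Insig2 was the 1 called gene of 23 measured in cholesterol synthesis. Among 28 immediate early and feedback genes Ier3 rose by 1.16 ± 0.10 and Egr2 was called at 0.75 ± 0.15, with Egr2 lost at an adjusted p of 0.145 without flox2_1 and 0.279 without flox1. In the arrestin family of 6 measured genes, Arrb1 and Arrdc3 were called at 1.67 ± 0.31 and 1.08 ± 0.23. Arrb1 lost its call at an adjusted p of 0.139 without flox2_1 and 0.0605 without flox1. Arrdc3 lost it at 0.187 without flox1, 0.135 without flox2_2 and 0.0657 without triCH1flox2_2. Hmox1 was the 1 called gene in each of the lists of iron metabolism (11 measured) and antioxidant genes (24 measured). Over all genes 1.42% were called higher, so a single call in a list of this size says little about the list.

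The transcripts that fell were fewer and their falls smaller, and several serve ribosome production. Of 64 measured ribosome biogenesis genes 3 were lower and 0 higher, against 0.209% of all genes, and 58 of the 64 had a negative change, compared with 57% of all tested genes. Their median was -0.25, and the medians within flox1, flox2_1 and flox2_2 were -0.23, -0.30 and -0.28. Rcl1, which acts in processing of the small subunit RNA, gave 677, 591 and 818 under hypoxia, against 1218, 1150.1 and 1494 in normoxia, a change of -0.87 ± 0.15 (limma, adjusted p = 0.00509). Grwd1 and Rrs1, which act in assembly of the large subunit, were called at -0.68 ± 0.14 and -0.57 ± 0.12. Each of these calls was lost when some line was left out, Rcl1 at an adjusted p of 0.0811 without flox1. For Grwd1 it was 0.0542 without flox2_1, 0.259 without flox1, 0.0609 without flox2_2, 0.0639 without triCH1flox2_1 and 0.0567 without triCH1flox2_2. For Rrs1 it was 0.166 without flox2_1, 0.244 without flox1, 0.0956 without triCH1flox2_1 and 0.0555 without triCH1flox2_2. Of 34 measured genes of RNA polymerases I and III, which transcribe ribosomal and transfer RNA, 2 were lower and 1 higher, with a median of -0.17. Polr1b, the second largest subunit of polymerase I, gave 393, 343 and 389.5 under hypoxia, against 733, 689 and 786 in normoxia, without overlap. Polr3e, of polymerase III, gave 601, 629 and 704 under hypoxia, against 1178, 1225 and 1068 in normoxia. The 2 fell by 0.94 ± 0.16 and 0.83 ± 0.16 log2 units. Polr1b lost its call at an adjusted p of 0.0668 without flox1, and Polr3e at 0.119 without flox2_1 and 0.273 without flox1. Polr3g, an alternative subunit of polymerase III, was called higher at 1.02 ± 0.23 and lost the call at 0.21 without flox1, 0.167 without flox2_2, 0.0511 without triCH1flox2_1 and 0.095 without triCH1flox2_2. None of 40 measured cytosolic ribosomal proteins was called, and 36 of them had a positive change, compared with 43% of all tested genes. Their median was 0.11. That median was 0.29 in flox2_1, 0.04 in flox1 and 0.00 in flox2_2.

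A pair of chemokines that attract monocytes fell in all 3 lines. Of 17 measured inflammatory genes 2 were lower and 0 higher, 13 had a negative change and the median was -0.30. Over all tested genes 0.209% were called lower and 57% had a negative change. Ccl7 gave 613, 535 and 488 under hypoxia, against 1419, 1289 and 1100.5 in normoxia, and its change differed little between lines, at -1.18, -1.24 and -1.14. Ccl2 gave 929.5, 896 and 988 under hypoxia, against 1845, 2160.0 and 1634 in normoxia. Neither pair of groups overlapped, with changes of -1.19 ± 0.16 and -0.98 ± 0.16 (limma, adjusted p = 0.000793 and 0.00426). The call for Ccl2 was lost at an adjusted p of 0.0542 without flox2_1 and 0.0745 without flox1, and that for Ccl7 was kept when each line was left out in turn. Spsb2, an adaptor of a ubiquitin ligase, kept its call likewise, with 221, 259.7 and 207 under hypoxia, against 550.2, 556 and 539.7 in normoxia, a change of -1.19 ± 0.18. A further tested probe set of Spsb2 had the same sign but was not called. Among all 35 lower probe sets, 3 kept their calls when each control line was left out, Ccl7, Spsb2 and a probe set without a single gene symbol. The corresponding number was 140 among the 229 higher probe sets.

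The remaining genes among the 15 lowest were less secure. Of the 15 genes, 9 had further tested probe sets, and in 0 of the 9 were all of these called lower too. Usp7, a deubiquitinase, fell furthest on its faint probe set, with 44.2, 96.1 and 26.3 under hypoxia, against 198, 198 and 182 in normoxia. Its 5 other tested probe sets included 2 with the same sign and none called, and the brightest had a change of 0.21. Nop16, a nucleolar protein, gave 101, 64.3 and 19.9 under hypoxia, against 218, 168 and 224 in normoxia. Usp7 lost its call at an adjusted p of 0.195 without flox1, 0.0957 without flox2_2 and 0.0555 without triCH1flox2_2. Nop16 lost it at 0.063 without flox2_1, 0.0815 without flox1, 0.181 without flox2_2, 0.0511 without triCH1flox2_1 and 0.0945 without triCH1flox2_2. Gpatch4, Ercc8 and Shq1 had changes of -1.27 ± 0.27, -1.09 ± 0.22 and -1.02 ± 0.23, and their signals did not overlap between oxygen levels. Ercc8 acts in transcription-coupled repair and Shq1 in assembly of small nucleolar particles. All 3 lost their calls in turn: Gpatch4 at an adjusted p of 0.0827 without flox2_1, 0.326 without flox1, 0.0505 without triCH1flox2_1 and 0.0709 without triCH1flox2_2. Ercc8 lost it at 0.186 without flox1, 0.0944 without flox2_2 and 0.0607 without triCH1flox2_2. Shq1 lost it at 0.0685 without flox2_1, 0.287 without flox1, 0.135 without flox2_2, 0.0558 without triCH1flox2_1 and 0.109 without triCH1flox2_2. H2aj, a histone variant, gave 3698, 3085 and 2626 under hypoxia, against 6597, 5001 and 5716 in normoxia, and lost its call at an adjusted p of 0.0706 without flox1. Dnajc11 and Il1rn, at -0.90 ± 0.20 and -0.85 ± 0.19, lost their calls in 5 of the 6 omissions of a line, as did Nop16 and Shq1. Dnajc11 had an adjusted p of 0.45 without flox1, 0.129 without flox2_2, 0.0816 without triCH1flox2_1, 0.0657 without triCH1flox1 and 0.1 without triCH1flox2_2. Il1rn, the antagonist of the interleukin-1 receptor, had one of 0.138 without flox2_1, 0.0786 without flox1, 0.155 without flox2_2, 0.0893 without triCH1flox2_1 and 0.1 without triCH1flox2_2. The groups of Il1rn overlapped because flox1 was far dimmer at both oxygen levels, at 55.7, 450.4 and 279 under hypoxia, against 90.6, 797 and 669 in normoxia. Csnk1d, casein kinase 1 delta, was lower on 2 probe sets, at -0.86 ± 0.16 and -0.83 ± 0.18, and higher on another, at 0.63 ± 0.14, so no direction holds for the gene. Without flox1 the first of these had an adjusted p of 0.0582. In the BCL2 and caspase list of 21 measured genes Bid was called lower at -0.65 ± 0.14 and Casp6 higher at 0.86 ± 0.17. Bid lost its call at an adjusted p of 0.189 without flox2_1, 0.308 without flox1, 0.101 without triCH1flox2_1 and 0.0607 without triCH1flox2_2, and Casp6 at 0.145 without flox2_1 and 0.0503 without flox1.

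**Figure D3:**
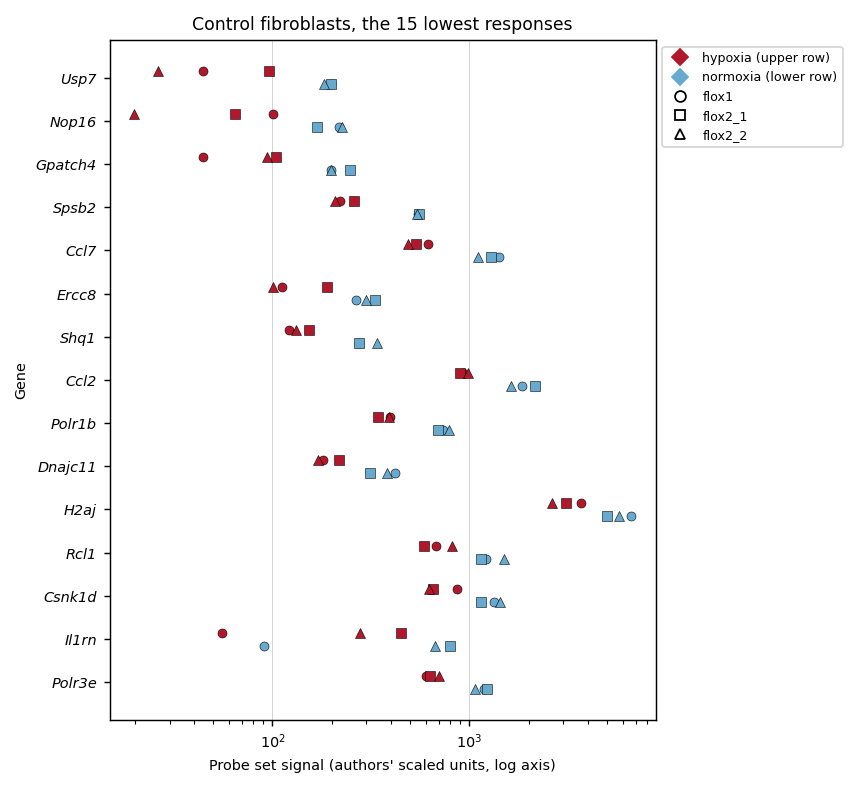
Probe set signals (log axis, authors' scaled units) of the 15 genes with the lowest changes in the control lines, with hypoxia in the upper row of each gene and normoxia in the lower, and 1 marker shape per line. The hypoxia signals lie to the left of the normoxia signals in 14 of the 15 genes, the exception being Il1rn, where both flox1 signals are under 100.

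Programmes of growth and damage gave no call in either direction in limma. These were mitosis (32 measured genes), DNA replication (37), p53 targets (20), interferon response (14), the IGF axis (11), contractile and TGF-beta genes (27) and autophagy and lysosome (28). Over all genes 1.42% were called higher and 0.209% lower. At those shares lists of this size would hold few or no calls, so the absence of calls does not set these lists apart. The medians of the lists are given for that reason. Their medians lay between -0.15 for p53 targets and 0.13 for contractile genes. Cdkn1a, the p53-induced brake on the cell cycle, gave 17356, 12446 and 12551 under hypoxia, against 17892, 8900.0 and 14821 in normoxia, and the signals overlapped.

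Over all tested transcripts the responses of the 3 lines were weakly related. Across all 18903 probe sets, which share the arrays' scaling, the responses of flox1 and flox2_1 correlated at r = 0.405 (rho = 0.339), those of flox1 and flox2_2 at 0.204 (0.0835) and those of flox2_1 and flox2_2 at -0.016 (-0.175). The values describe how transcripts covary and carry no test. The median response over all probe sets was -0.03 in flox1, -0.05 in flox2_1 and -0.05 in flox2_2. Changes of at least 1 log2 unit in either direction numbered 651 in flox1, 773 in flox2_1 and 1181 in flox2_2. Over the 229 higher probe sets the median response was 1.40 in flox1, 1.49 in flox2_1 and 1.40 in flox2_2. Of these, 127 rose by at least 1 log2 unit in every line, against 0.677% of all tested probe sets, a contrast that the choice of called probe sets favours. Line flox2_1 had the largest response for 99 of the 229, flox2_2 for 73 and flox1 for 57. Among the 35 lower probe sets the largest fall was in flox2_2 for 20. Collagen chains had medians of -0.44 in flox2_2, 0.04 in flox1 and 0.10 in flox2_1.

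**Figure D4:**
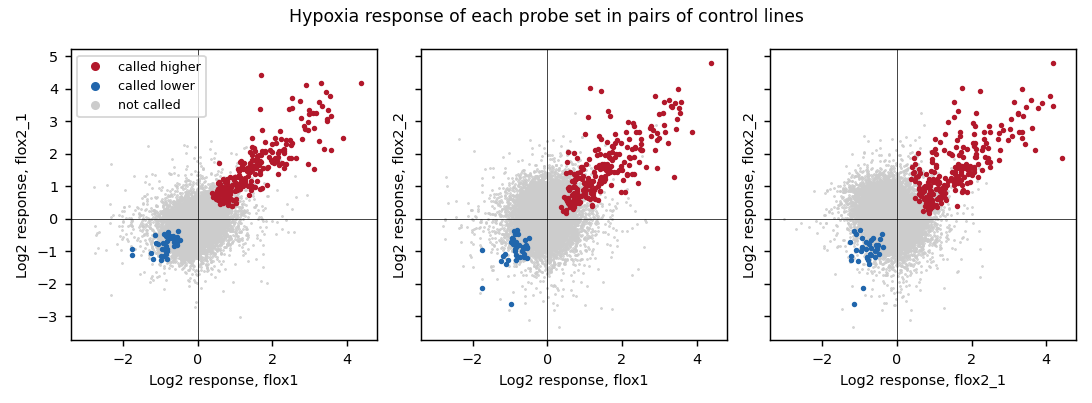
Log2 response to hypoxia of each of 18903 probe sets in pairs of control lines, with those called higher in red, those called lower in blue and the rest in grey. The red points rise along the diagonal in all 3 panels, while the grey cloud does not do so for flox2_1 and flox2_2. Over all 18903 probe sets, red and blue included, r was 0.405 for flox1 and flox2_1 and -0.016 for flox2_1 and flox2_2.

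Among the called genes, the least variable between lines were Map2k1, Aldoc, Acot2, Ccl7 and Rcl1. Map2k1, the kinase MEK1, gave 8053, 7543 and 7272 under hypoxia, against 3939, 3464 and 3392 in normoxia, and its line responses were 1.03, 1.12 and 1.10. Acot2, a mitochondrial thioesterase, kept nearly the same change, 1.17, 1.12 and 1.14, although flox1 was dimmer than the other lines at both oxygen levels. Its call was lost at an adjusted p of 0.0527 without flox1. The most variable were Dubr, Ndufa4l2, Kbtbd11, Bend5 and H2-Ab1, each with at least 1 faint normoxia signal. Dubr, a long noncoding RNA, gave 361, 339 and 546 under hypoxia, against 153, 86.6 and 14.6 in normoxia, with line responses of 1.14, 1.75 and 4.03, largest where the normoxia signal was lowest. H2-Ab1, a class II histocompatibility chain usually confined to antigen-presenting cells, gave 279, 269 and 304 under hypoxia, against 74.0, 8.0 and 16.0 in normoxia. The summed macrophage markers, of which 4 of 10 averaged at least 100, ran from 635.4 to 819.7 under hypoxia, against 805 to 967 in normoxia, and Ptprc was at most 37.9. Bend5, a DNA-binding protein, gave 214, 278 and 309 under hypoxia, against 6.7, 83.3 and 7.3 in normoxia. In H2-Ab1 and Bend5 the hypoxia signals lay closer together, on the log scale, than the normoxia signals, and the groups were separate. Kbtbd11 gave 234, 226 and 198 under hypoxia, against 4.3, 35.0 and 68.4 in normoxia, and lost its call at an adjusted p of 0.0567 without flox2_1 and 0.245 without flox1. Smtnl2, a smoothelin-like protein, gave 284, 361 and 219 under hypoxia, against 25.3, 10.8 and 14.2 in normoxia. Rcor2, a corepressor, gave 248, 267 and 260.2 under hypoxia, against 8.2, 35.1 and 35.5 in normoxia, so both were also faint without hypoxia.

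No probe set differed in its response between control and triCH1 lines after adjustment. All 229 higher probe sets had the same sign in the triCH1 lines, 150 of them were called there as well, and 203 had a smaller change there, with a median of 1.14 in triCH1 lines and 1.45 in control lines. Since the 229 were chosen for their control response, this comparison favours larger control values. Of the 177 probe sets called higher in the triCH1 lines (0.936% of those tested), a choice that favours the triCH1 values, 124 had a larger change in control lines, with medians of 1.58 in control lines and 1.36 in triCH1 lines. In the test of the difference itself, 0 of 18903 probe sets passed in limma, where 140 were larger and 162 smaller in control lines at an unadjusted p under 0.05. The smallest adjusted p was 0.341. The nearest was Egln3, which changed by 3.58 ± 0.15 in control lines and 2.18 ± 0.15 in triCH1 lines, a difference of 1.40 ± 0.22. Its hypoxia signals were 5388, 6799 and 5747 in control lines and 1780.1, 1028 and 1264 in triCH1 lines. Pfkfb3 had a difference of 1.03 ± 0.23, Ampd3, an AMP deaminase, one of 0.94 ± 0.22 and Ndrg1 one of 1.09 ± 0.26 on a probe set other than the one described above, on which it was 0.93 ± 0.24. None passed the threshold. Pgf, the growth factor, changed by 3.59 ± 0.49 in control lines and 0.85 ± 0.49 in triCH1 lines, a difference of 2.75 ± 0.69 (limma, adjusted p = 1). Bnip3 changed by nearly the same amount in both, with a difference of 0.07 ± 0.23. In the other direction the smallest p-values were those of Fbxo36, Cav3, Ap5s1, Tgfbrap1 and Dnajc11, with differences between -1.30 for Fbxo36 and -0.92 for Dnajc11. Of the 35 lower probe sets, 34 had the same sign in the triCH1 lines and 2 were called there. All 35 had smaller changes there, which their choice by the control response favours. Of the 12 called lower in the triCH1 lines (0.0635%), 2 had a larger fall in control lines.

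**Figure D5:**
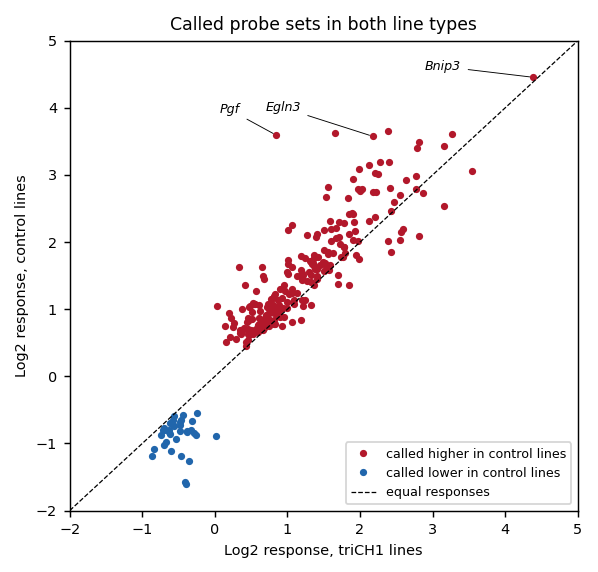
Log2 response in the control lines (vertical axis) against that in the triCH1 lines (horizontal axis) for the probe sets called in the control lines, 229 higher in red and 35 lower in blue, with equal responses on the dashed line. Of the 229 red points, 203 lie above the line, Pgf and Egln3 farther than Bnip3.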

How the data were processed

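Total RNA of 12 cultures was hybridised to Affymetrix Mouse430_2 arrays, 1 colour, with 1 array per line and oxygen level. The deposited values are intensities on a linear scale that the authors made with Affymetrix's Statistical algorithm at a target of 500, per the labels, and the software version is not given in the sources used here. On each array the mean without the lowest and highest 2% of probe sets was 500. Of 45101 probe sets, 64 manufacturer's controls were left out. GEO's platform annotation gave 34945 exactly 1 symbol, 932 several and 9160 none listed; only the first were named. No detection calls were used.

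The hypoxia response was fitted with limma 3.58.1 in R 4.3.3 (lmFit, eBayes with a variance trend) on log2(signal + 20) over all 12 arrays, with the line as a fixed block and 1 hypoxia response per line type, which left 4 residual degrees of freedom. Tests were two-sided with Benjamini-Hochberg adjustment over 18903 probe sets, and a call is an adjusted p under 0.05. Arrays of the same line name come from the same fibroblast line, which is why they were paired. After removal of group means, the arrays of a pair correlated at 0.472 in flox1, 0.284 in flox2_1 and -0.0199 in flox2_2. No array pair was identical, and the correlation of log2 signals lay between 0.93 and 0.976. Precision is limited by the number of arrays. Gene lists used the probe set with the highest mean, and all lists and members were chosen with earlier results of these data known. Genes were named as the 20 highest and 15 lowest called genes, the 5 with the widest and the 5 with the narrowest range over lines, the 5 with the smallest p in each direction of the difference from triCH1 lines, every called list member and otherwise up to 6 members in list order. Some uncalled list members were chosen after their values were seen. Promoters came from RefSeq (GRCm38.p6), matched by symbol. The fit was tested on simulated data. Alternatives covered the added constant, the filter, the normalization, the block, the variance trend, 1 value per gene, a minimum change and leaving out each line.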

Additional observations from a re-analysis of the deposited data

Results flagged for a closer look

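For 4 genes, none called in the control lines, each control line moved one way and each triCH1 line the other. The pattern was sought only among the named genes and the called list members. Its share over all tested probe sets was not counted, so the 4 are not set apart from that background. Rps10, a ribosomal protein, changed by 0.33 in control lines and -0.55 in triCH1 lines on 1 probe set, a difference of 0.88 ± 0.19. Cav3, a muscle caveolin, had a difference of -1.22 ± 0.34, with changes of -0.44 in control lines and 0.78 in triCH1 lines. Ap5s1, an adaptor subunit of vesicle traffic, had one of -0.94 ± 0.28, with changes of -0.68 in control lines and 0.26 in triCH1 lines. Tgfbrap1, which binds TGF-beta receptors, had one of -1.02 ± 0.31, with changes of -0.47 in control lines and 0.55 in triCH1 lines. None of the 4 differences passed the test in limma after adjustment (adjusted p = 1.00 to 2 decimals). All 4 were named for the smallest p of the difference. Rps10, Ap5s1 and Tgfbrap1 have other tested probe sets, on which the difference lay between -0.06 and 0.10 for Rps10 (4 probe sets), and was -0.11 for Ap5s1 and 0.03 for Tgfbrap1.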

How the results depend on the processing

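In 104 single-gene results, 19 alternative settings turned no direction, and 33 kept their side of the threshold in all of them, or 53 when the test against a minimum change of 1 log2 unit is set aside. That test called 62 probe sets higher and 0 lower. Without the replicate block, with paired arrays treated as separate, 151 were higher and 6 lower, all of them among the 229 and 35. With 1 value per gene 149 genes were higher. The lower calls were the less stable: 8 with the control arrays alone and 15 without a variance trend. Leaving out 1 line at a time gave 148 to 248 higher and 6 to 79 lower, lowest for both without flox1 and highest without flox2_2. Other counts of calls stayed within 1.5 times of the reported ones, and the difference between line types gave 0 calls under each setting that could give one. The share of genes called higher with the HIF core letters was 82.2% when GCGTG also counted, against 78.9% of genes called lower and 70.1% of tested genes. In the 250 bases before the start alone, ACGTG was held by 46.6% of genes called higher. There it was 21.1% for genes called lower (4 of 19) and 26.2% for tested genes. Signals near background limit the size of changes for genes faint in normoxia, since the added constant then sets part of the fold.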

Other observations

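Several genes outside the lists were called higher, chosen here after their values were seen. The metallothioneins, which bind zinc and copper, rose in every control line. Mt1 gave 14402, 13836 and 14345 in flox1, flox2_1 and flox2_2 under hypoxia, against 4123, 3314 and 5281 in normoxia. Mt2 gave 6729, 6704 and 7027 under hypoxia, against 2496, 2998 and 3842 in normoxia. The groups of both genes were separate, with changes of 1.76 ± 0.13 for Mt1 and 1.15 ± 0.13 for Mt2 (limma, adjusted p = 1.17e-06 and 0.000153). The Mt1 probe set is one of those the array's maker marks as able to detect more than 1 transcript, so related metallothioneins may share its signal.

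Ccng2, a cyclin that restrains the cell cycle, was called on both tested probe sets, with changes of 2.32 ± 0.14 and 2.30 ± 0.16. On the brighter of them the signals were 3563, 4803 and 4905.5 under hypoxia, against 678, 875.5 and 1079 in normoxia. Nampt, which makes a precursor of NAD, was called on 2 of 3 tested probe sets, at 2.17 ± 0.18 and 1.85 ± 0.21. The third had a change of 0.62 ± 0.28 and signals of at most 175 in the control lines. Alkbh5, an RNA demethylase that uses oxygen, was called on both of its probe sets, at 1.06 ± 0.13 and 1.06 ± 0.17 (limma, adjusted p = 0.000251 and 0.00394).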
